A study of Mus musculus with 9 samples.

Results

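I1 is a cluster of cholinergic interneurons of the adult mouse spinal cord, for which *Pax2* and *Piezo2* serve as markers. Its members are the nuclei that carry the cluster label I1 in the authors' annotation, and no gene level was used here to choose them. There were 1520 of them, out of 5375 nuclei in the interneuron clusters I1 to I8, 16042 cholinergic nuclei and 34231 annotated nuclei in all. The cluster itself was made from the same expression values, so every comparison of I1 with another cluster below is a description with its spread over libraries, and no p-value is given for it.

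The mice were 8 weeks old, of the strain Chat-IRES-Cre::Sun1-sfGFP with the genotype Chat-iCre:+/wt; SUN-SfGFP:+/wt. Every group shared these alleles, and the labels name no treatment. In these mice Cre made under the control of *Chat* marks, for good, the nuclear envelope of any cell that has ever used that gene, so a sorted nucleus need not be cholinergic in the adult. Each library came from GFP+/DRAQ5+ nuclei of 4 pooled mice. Pool 1 held 2 males and 2 females, pool 2 held 4 males and pool 3 held 4 females, and the cords of each pool were divided by level (cervical, thoracic, lumbar/sacral), which gave 3 regions with 3 libraries each (9 libraries).

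Cholinergic interneurons of the cord lie in the intermediate zone and around the central canal. Some of them descend from V0 progenitors, which use *Dbx1*, and form C boutons, the large synapses that raise the firing of motor neurons through M2 receptors. *Pax2* is a paired-box factor of many inhibitory interneurons of the cord, whereas *Piezo2* encodes a stretch-gated cation channel best known from the sensory neurons of touch and proprioception. *Chat* encodes the enzyme that makes acetylcholine.

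The values were corrected counts made by the authors with a model (SCTransform), which are scores and not molecules. They were summed over the I1 nuclei of a library and scaled to 1000000, here called CPM. The libraries held 29 to 349 I1 nuclei (median 172), with 29 in the library labelled cervical (replicate 2), and the median I1 nucleus had 4142 to 16190 corrected counts and 1860 to 4841 detected genes. A total of 3 corrected counts corresponded to 2.02 to 6.53 CPM in I1, a floor that covers counting error only. Scrublet called 10 of the 1520 nuclei doublets (0.658%, against 1.03% of all cholinergic nuclei), and 5 I1 nuclei shared their barcode sequence with a nucleus of another library.

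The region labels of the cervical and thoracic libraries of the male pool went against their Hox genes, the positional genes of the body axis. Outside I1, *Hoxc5* was at 26.4 and 24.1 CPM in the cervical libraries of pools 1 and 3 and at 88.8 and 87.5 CPM in their thoracic libraries. It was at 75.1 CPM in the library labelled cervical (replicate 2) and at 14.8 CPM in the library labelled thoracic (replicate 2). *Hoxa9* had the same order, with 0.386 and 0.234 against 9.05 and 8.38 CPM, and 9.64 and 0.420 CPM in the male pool. In these 2 genes the former lay with the thoracic libraries and the latter with the cervical libraries. The other 2 genes checked did not separate the regions as clearly. *Hoxa7* was at 6.33, 14.5 and 4.83 CPM in the libraries labelled cervical and at 9.31, 11.4 and 15.9 CPM in those labelled thoracic, and *Hoxc4* was at 60.7, 62.7 and 59.7 CPM, then 76.3, 35.7 and 65.5 CPM (replicates 1 to 3, outside I1). The libraries labelled cervical (replicate 2) and thoracic (replicate 2) are called the doubted libraries below. All samples were kept under their labels, and the counts of genes and the shares that compare regions are also given without these libraries.

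*Piezo2* was found in I1 at 582 to 898 CPM (median 803, n = 9 libraries) and in the mean of the clusters I2 to I6 at 7.44 to 19.8 CPM (median 16.9). The lowest I1 library stood far above the highest value of the other clusters, and the mean difference on the log2(CPM + 5) scale was 5.77 ± 0.25 (SD, n = 9), or 54.4-fold. Among nuclei thinned to 4000 corrected counts each, which left out 139 I1 nuclei, all of lumbar/sacral replicate 1, 83.3% of I1 nuclei had *Piezo2* (88.4% unthinned), against 4.98% in I2 to I6 (7.16% unthinned), 17.1% in visceral and 7.02% in skeletal motor neurons. *Piezo2* did not set I1 apart from the small clusters I7 and I8. Its mean was 735 ± 119 CPM (SD, n = 9) in I1, 861 ± 179 CPM (n = 6) in I7 and 1515 ± 178 CPM (n = 8) in I8, so that I1 and I7 overlapped and I8 lay above both.

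*Pax2* (chromosome 19, 44756045 to 44837871, plus strand, GRCm38, GENCODE M21) ran from 227 to 335 CPM in I1 (median 271). Its mean was 272 ± 33.6 CPM in I1, 283 ± 62.2 in I3 and 292 ± 62.0 in I4 (SD, n = 9 each), which do not differ beyond their spread. The gene was lower in I2 (186 ± 30.3 CPM), I5 (107 ± 17.4) and I6 (98.3 ± 20.2), and all but missing in I8, with a mean of 9.55 CPM in 8 libraries. Thinned nuclei with *Pax2* made up 63.6% of I1 (77.2% unthinned), 2.76% of I8, 1.99% of skeletal and 1.03% of visceral motor neurons, 2 classes that should lack the gene. *Pax2* therefore separated I1 from I8 and from motor neurons, and *Piezo2* separated it from I2 to I6. Neither gene marked I1 off from I7. *Pax2* was at 296 to 432 CPM in I7 (n = 6), a range that overlapped I1, though I7 was the higher in each of these 6 libraries. It was found in 80.5% of thinned I7 nuclei.

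*Igsf3*, *Cdh23* and *Prlr* had been shown by the study as markers of I1 from these same nuclei, so their direction is not independent evidence. *Igsf3* (chromosome 3, 101377083 to 101463059, plus strand), a membrane protein of the immunoglobulin superfamily, was at 148 to 229 CPM in I1 (median 180) against 19.2 to 34.6 CPM in I2 to I6, a log2 difference of 2.98 ± 0.47 (SD, n = 9). *Cdh23* (chromosome 10, 60302748 to 60696490, minus strand), the cadherin of the hair cell tip link, was at 152 to 235 CPM (median 178) against 7.09 to 13.6 CPM, a difference of 4.02 ± 0.16. Its level in I8 spread from 13.3 to 207 CPM over 8 libraries and so reached into the range of I1. *Prlr* (chromosome 15, 10177238 to 10349180, plus strand), the prolactin receptor, was at 98.8 to 264 CPM (median 158) against 11.2 to 32.0 CPM, a difference of 3.1 ± 0.42, and I7 at 44.6 to 179 CPM overlapped I1. These coordinates are of the whole gene in the same annotation.

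**Figure D1:**
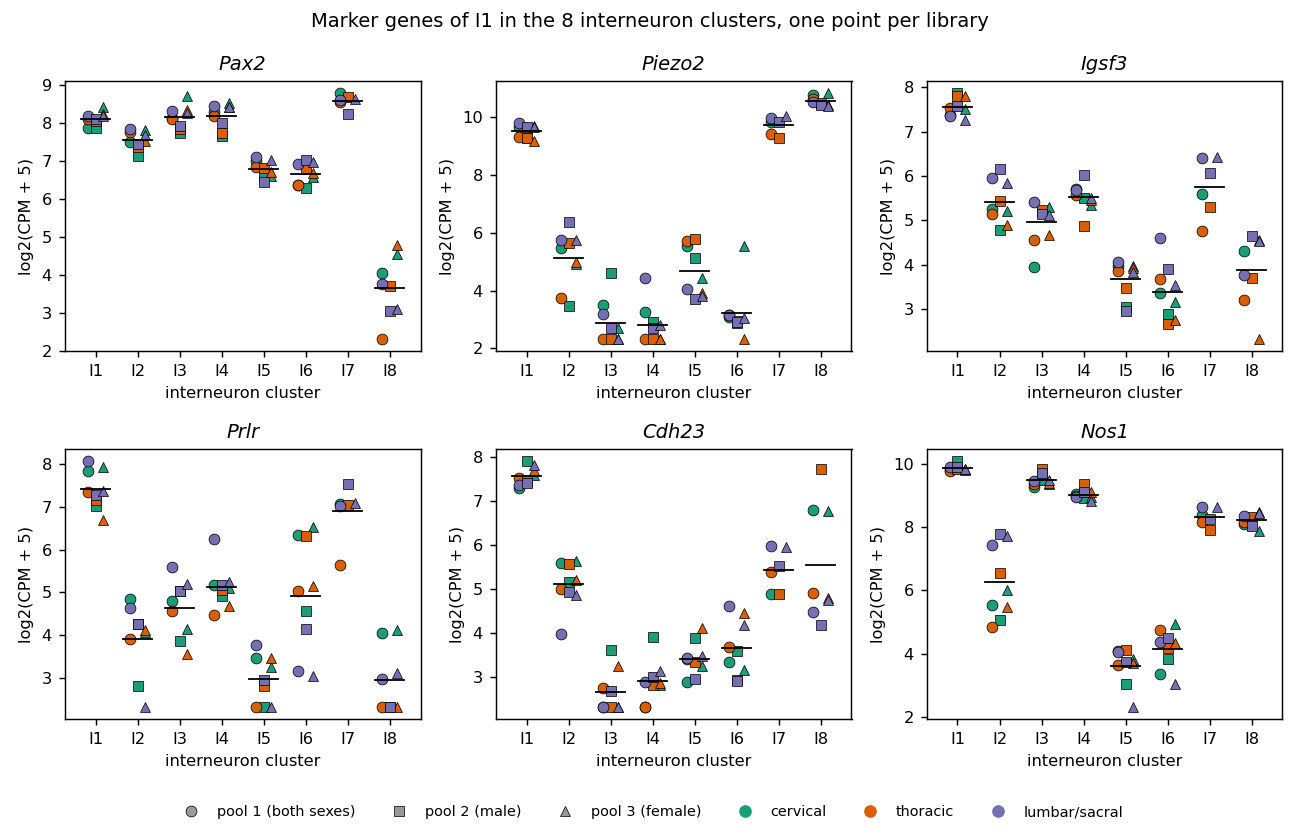
Levels of 6 genes in the interneuron clusters I1 to I8 as log2(CPM + 5), 1 point per library with at least 10 nuclei of the cluster, with shapes for pools, colours for region labels and bars for means. *Piezo2* is high in I1, I7 and I8, *Pax2* is low in I8, and *Nos1* is at 869 to 1072 CPM in I1, above the means of I2, I5, I6, I7 and I8.

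Across all genes, a gene was counted as higher or lower in I1 when its mean log2 difference from I2 to I6 was at least 1 and had the same sign in all 9 libraries. Of 12300 genes, 333 were higher (2.71% of genes) and 279 were lower (2.27% of genes), and the median of all genes was -0.11. Of the 333, 159 had their highest mean level of all 8 interneuron clusters in I1, while 98 were as high or higher in I7. These counts moved with the pseudocount, from 901 genes in all at 1 to 315 at 20. With the nuclei of I2 to I8 pooled into 1 sum per library, in place of the mean over I2 to I6, 201 genes were higher and 438 lower. This setting changed the set of clusters as well as their weights. Without the doubted libraries 308 were higher and 267 lower.

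The genes with the largest differences did not overlap between the I1 libraries and the means of I2 to I6, which the choice of these genes nearly fixes. Of the 12300 genes, every I1 library lay above all those means in 311 (2.53%) and below them in 746 (6.07%). *Gucy2d*, a membrane guanylate cyclase, was at 61.5 to 179 CPM in I1 (median 93.0) and at 0 to 3.60 CPM in I2 to I6, a log2 difference of 4.17 ± 0.63 (SD, n = 9). *Otof*, the otoferlin gene, whose product is the calcium sensor of hair cell vesicle release, was at 538 to 697 CPM (median 594) against 27.1 to 98.6 CPM. *Rgs6*, a regulator of G protein signalling, was at 1650 to 2440 CPM (median 2165) against 124 to 383 CPM.

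The set held several receptors. *Qrfpr*, the receptor of the peptide QRFP, was at 85.5 to 131 CPM (median 103) against 0.533 to 6.07 CPM in the other clusters. *Npffr1*, a receptor of neuropeptide FF, was at 53.3 to 135 CPM (median 79.0) against 0 to 2.67 CPM. *Grm8*, an inhibitory metabotropic glutamate receptor, was at 1407 to 2424 CPM (median 1905) against 252 to 469 CPM. *Nrp1*, a co-receptor of class 3 semaphorins, was at 304 to 459 CPM (median 383) against 31.8 to 67.2 CPM, and *Rarb*, a retinoic acid receptor, was at 246 to 425 CPM against 21.4 to 41.9 CPM. The collagen chain *Col6a6*, the small GTPase *Rab38*, *Ccdc3* and *Ankfn1* completed the 15 genes with the largest differences, at mean log2 differences of 4.04, 3.57, 3.91 and 3.68.

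**Figure D2:**
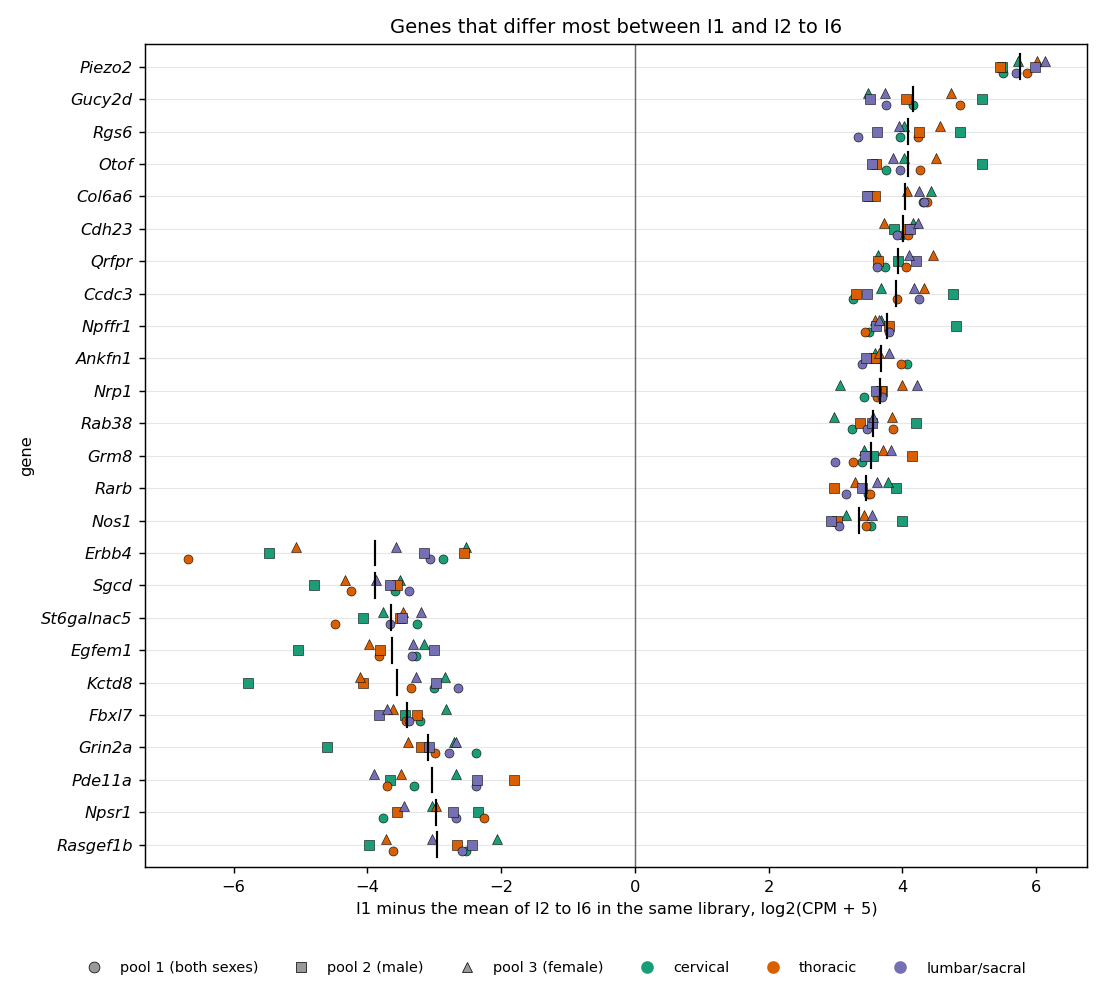
Difference between I1 and the mean of I2 to I6 in the same library on the log2(CPM + 5) scale for the 15 genes with the largest and the 10 with the lowest mean difference, 1 point per library and a bar for the mean. *Piezo2* lies apart at 5.77, and *Erbb4* has the widest spread over libraries (SD 1.48).

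Among the 10 lowest genes were receptors and enzymes. *Npsr1*, the neuropeptide S receptor, was at 0 to 4.72 CPM in I1 and at 92.2 to 205 CPM in I2 to I6. Its level was as low in I2 and I7, at means of 1.30 and 3.04 CPM, while I4 was at 245 CPM. *Sgcd*, delta-sarcoglycan, was at 142 to 402 CPM against 2688 to 5595 CPM, a log2 difference of -3.88 ± 0.48. *St6galnac5*, a sialyltransferase, was at 4.10 to 11.2 CPM against 139 to 212 CPM, and *Fbxl7*, an F-box gene, at 11.7 to 26.8 CPM against 237 to 313 CPM. *Erbb4*, a neuregulin receptor, had a mean of 81.7 CPM in I1 against 1325 CPM, but its I1 level ran from 7.38 to 159 CPM. In I7 it was lower still, at 50.6 CPM beside 89.3 CPM in I1 of the same 6 libraries. *Egfem1*, *Kctd8*, a GABA-B receptor auxiliary subunit, and *Rasgef1b* were at means of 56.4, 54.6 and 29.95 CPM against 849, 636 and 266 CPM. *Rasgef1b* was about as low in I7, at 32.9 CPM beside 30.5 CPM in I1 of the same 6 libraries.

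The transmitter genes of I1 were those of a cholinergic neuron with GABA genes. *Chat* was at 167 to 242 CPM in I1 (median 192) and at 175 to 241 CPM in I2 to I6, ranges that overlapped, and 46.1% of thinned I1 nuclei had it (60.1% unthinned), against 47.1% in I2 to I6 and 68.5% in skeletal motor neurons. *Slc5a7*, the choline transporter, was at 122 to 179 CPM. The counts of gene lists from here on stand beside 2.71% higher and 2.27% lower among all genes. Of the 4 genes of acetylcholine handling that were tested, 0 were counted as higher and 0 as lower. *Slc18a3*, the packaging gene of this list, was not among the deposited genes. Of the 6 genes of GABA and glycine synthesis, packaging and uptake, 3 were higher and 0 lower, with a median log2 difference of 0.94. *Gad1*, a GABA-synthesizing enzyme, was at 51.9 to 98.0 CPM against 46.5 to 68.7 CPM, with a log2 difference of 1.07 ± 0.23 when each of I2 to I6 counts alike. *Slc32a1*, the vesicular transporter of GABA and glycine, was at 17.4 to 126 CPM against 6.61 to 36.5 CPM. Of the vesicular glutamate transporters, *Slc17a7* was not among the deposited genes, and the other 2 summed to 0 to 16.2 CPM in I1.

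*Nos1* (chromosome 5, 117781032 to 117958840, plus strand), the neuronal nitric oxide synthase, was at 869 to 1072 CPM in I1 (median 904) and in 90.8% of thinned nuclei (94.9% unthinned), against 41.5% in visceral motor neurons, which use this gene too. The order of the means among interneurons was I1 at 923 ± 63.2 CPM, I3 at 716 ± 95.4, I4 at 516 ± 59.4, I7 at 320 ± 61.3, I8 at 295 ± 44.2 and I2 at 96.4 ± 77.5 (SD), where I7 and I8 did not differ beyond their spread and I1 and I3 touched (lowest 869 in I1, highest 910 CPM in I3). Of 12 genes of nitric oxide and cGMP signalling, 2 were higher and 2 lower. *Pde11a*, a phosphodiesterase of cyclic nucleotides, was at 2.18 to 15.5 CPM against 141 to 210 CPM. Its mean was as low in I2, at 8.01 CPM beside 7.51 CPM in I1, while I4 was at 547 CPM.

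Transcription factors split. Of 23 tested factors of ventral spinal interneurons, 4 were higher and 5 lower, with a median of -0.47. *Ebf1*, a helix-loop-helix factor, was the most abundant, with 3541 to 4447 CPM in I1 (median 3888) against 770 to 984 CPM, and 99.9% of thinned I1 nuclei had it. *Ebf2* was at 432 to 599 CPM, *Pax8* at 156 to 271 CPM against 41.5 to 104 CPM, and *Satb1*, a chromatin organizer, at 275 to 403 CPM against 73.2 to 102 CPM. The zinc finger homeobox genes *Zfhx3* and *Zfhx4* were among the lower ones, at mean I1 levels of 38.03 and 6.66 CPM against 410 and 77.1 CPM, as was *Onecut2*, at a log2 difference of -1.34.

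Receptors for transmitters followed. Of 6 tested acetylcholine receptor genes, 3 were higher and 0 lower. *Chrm2*, the inhibitory M2 receptor found at C boutons, was at 736 to 1345 CPM (median 1075) against 335 to 641 CPM. *Chrna7*, the homomeric nicotinic subunit, was at 223 to 433 CPM against 39.2 to 73.5 CPM, and *Chrm3*, the excitatory M3 receptor, at 162 to 403 CPM against 154 to 340 CPM, ranges that overlapped. Of 12 monoamine receptor genes, the serotonin receptors *Htr2c* (432 to 927 CPM against 183 to 308) and *Htr2a* (32.0 to 69.7 CPM against 16.4 to 34.0) were higher and 2 genes were lower, among them *Adra1b*, an adrenergic receptor, with 2.93 to 13.4 CPM against 34.7 to 87.7. In prolactin receptor signalling, 2 of 6 tested genes were higher and 0 lower, and the downstream kinase and factor genes *Jak2* and *Stat5b* differed by -0.14 ± 0.29 and -0.01 ± 0.17 (SD, n = 9).

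Of 30 tested subunits of ionotropic receptors, 5 were higher and 6 lower. *Grik1*, a kainate receptor subunit, was at 621 to 1367 CPM (median 977) against 145 to 447 CPM, and *Glra3*, a glycine receptor subunit, at 236 to 449 CPM against 40.3 to 101 CPM. The NMDA receptor subunits went opposite ways, with *Grin2b* at 651 to 796 CPM against 369 to 463, and *Grin2a* at 13.1 to 86.3 CPM against 425 to 536. *Gabra2*, a GABA-A receptor subunit, was at 16.2 to 50.5 CPM against 200 to 308 CPM.

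Of 43 voltage-gated and pacemaker channel genes, 14 were higher (32.6%, against 2.71% of all genes) and 2 lower (4.65%, against 2.27%), with a median of 0.18 against -0.11. *Kcnip4*, an accessory subunit of A-type potassium channels, was at 13197 to 18612 CPM (median 16442) against 2483 to 5018 CPM, and *Kcnd2*, a pore subunit of the same channels, was at 2022 to 3578 against 854 to 1799 CPM. *Kcnh7*, a channel of the ERG family, was at 824 to 1439 CPM against 89.2 to 350, and *Cacna1e*, the R-type calcium channel, at 281 to 434 CPM against 45.5 to 139. *Cacna2d1* and *Cacna1d* were lower, at means of 51.8 and 262 CPM against 312 and 592 CPM. Of 17 mechanosensitive and TRP channels, 2 were higher and 2 lower: apart from *Piezo2*, *Trpc4* was at 307 to 477 CPM against 19.4 to 78.5, while *Trpc7* was at 0 to 7.10 CPM against 63.5 to 98.2.

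Adhesion and guidance genes moved both ways. Of 24 cadherins and partners, 6 were higher (25%) and 3 lower (12.5%). *Cdh4* was at 504 to 675 CPM against 110 to 156 CPM, and *Pcdh9* at 647 to 2053 CPM against 4599 to 8193. Of 33 guidance genes, 9 were higher (27.3%) and 6 lower (18.2%). *Dcc*, the netrin receptor, was at 1029 to 1924 CPM against 299 to 795, *Ephb1* at 377 to 508 CPM against 119 to 181, and *Slit3*, a Robo ligand, at 6.53 to 70.6 CPM against 419 to 544. Peptide genes were sparse: 1 of 12 was higher and 1 lower. *Penk*, the enkephalin precursor, was at 27.4 to 216 CPM against 4.33 to 38.6 CPM and in 23.2% of thinned I1 nuclei (32.3% unthinned), against 9.27% of visceral motor neurons. Of 16 tested genes in the list of peptide receptors, which does not hold *Qrfpr*, *Npffr1* or *Npsr1*, 2 were higher and 1 lower. *Oprm1*, the mu opioid receptor, was at 105 to 227 CPM against 33.5 to 75.7 CPM, *Galr1*, a galanin receptor, at 23.8 to 69.7 against 3.49 to 9.89, and *Tacr1*, the substance P receptor, at 3.37 to 17.6 CPM against 95.2 to 220.

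Of 11 tested hormone receptor genes, 2 were higher and 2 lower. *Nr3c1*, the glucocorticoid receptor, was at 4.10 to 20.9 CPM against 38.4 to 62.5 CPM. Of 15 tested Hox genes, 1 was higher, *Hoxb6*, at 69.8 to 137 CPM against 33.2 to 50.3 CPM. Of 16 markers of the other interneuron clusters, 0 were higher and 7 lower. The study had shown these markers from the same nuclei, so their direction is not independent evidence.

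Markers of other cells were scarce. Those of oligodendrocytes summed to 38.5 to 82.8 CPM in I1 and 42.8 to 72.0 CPM in I2 to I6, those of astrocytes to 38.5 to 105 and 52.4 to 87.1, those of microglia to 7.06 to 85.3 and 6.09 to 106, and those of endothelial and mural cells to 3.14 to 47.9 and 9.53 to 41.6 CPM. Of these 4 lists, 0 genes were counted as higher or lower. The skeletal motor neuron gene *Tns1* was in 1.30% of thinned I1 nuclei (78.0% of skeletal motor neurons), and the visceral gene *Fbn2* in 1.81% (72.5% of visceral motor neurons). The markers of visceral motor neurons had 1 of 3 genes higher, which was *Nos1*. Mitochondrial transcripts made up 0.0448 to 0.387% of corrected counts in I1 and 0.0301 to 0.229% in the other interneurons, higher in I1 in 9 of 9 libraries, and their part in the differences was not tested.

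By the mean log2 level of 14464 genes, the cluster most like I1 was I7 (Pearson's r = 0.960, Spearman's rho = 0.954, 6 libraries). Among the interneurons I2 (r = 0.953), I4 (0.95), I3 (0.944), I6 (0.926), I5 (0.90) and I8 (0.873) followed. The visceral motor neuron clusters, the highest of which was V3 (0.918), came between I6 and I5, and the skeletal clusters S1 to S3 (0.881 to 0.886) between I5 and I8. These correlations are across genes, which are not independent replicates, and clusters of a library share its depth and its free RNA. Within single libraries I2 (7 libraries) or I4 (2 libraries) was the most like. I7, with 160 nuclei in all, had at least 10 nuclei in 6 of them, and there it ranked behind I2, I3 and I4. Its first place therefore rests on levels averaged over libraries. In those 6 libraries, 198 of 10065 genes were higher and 232 lower in I1 than in I7 by at least 1 with the same sign throughout. *Trpc5*, a TRP channel, was at a mean of 232 CPM in I1 and 6.0 CPM in I7, and *Qrfpr*, *Ccdc3*, *Col6a6* and *Ebf1* were also higher in I1 (log2 differences 4.12, 3.64, 3.55 and 3.51). *Pde5a*, the cGMP phosphodiesterase, was at 6.4 CPM in I1 and 577 CPM in I7, and *Ldb2*, a LIM-domain cofactor, at 10.9 and 504 CPM. *Rgs6*, *Grm8* and *Nrp1* differed by 0.83, 0.78 and -0.43, so part of the I1 profile was shared with I7.

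I1 took a larger share of cholinergic nuclei in lumbar/sacral cord. It made up 7.08, 3.88 and 9.30% of cholinergic nuclei in the cervical libraries of replicates 1 to 3, 7.67, 9.87 and 6.99% in the thoracic libraries, and 13.5, 11.8 and 11.1% in the lumbar/sacral libraries. The lumbar/sacral values lay above the other 6. Their mean was 12.1 ± 1.23% (SD, n = 3), which exceeded that of the other regions by 4.65 points (two-sided exact permutation test, p = 0.0119, the smallest p that 84 groupings allow here, adjusted p = 0.0476 over 4 tests of shares). A test over all 3 regions gave p = 0.0286 (exact permutation over 1680 assignments, adjusted p = 0.0571). Without lumbar/sacral replicate 1 the excess was 3.97 points and the exact p was 0.107 (28 groupings), and without both doubted libraries it was 4.36 points with an exact p of 0.0286 (35 groupings). With the labels permuted only within pools the two-sided exact p was 0.037, the smallest that 27 arrangements allow.

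Counted within the interneurons, the excess did not pass. The share was 26.0, 18.01 and 28.6% in the cervical, 28.7, 26.3 and 27.0% in the thoracic, and 31.6, 29.0 and 29.4% in the lumbar/sacral libraries. The lumbar/sacral libraries were again the highest, by 4.26 points on average (exact permutation test, two-sided, p = 0.0952, adjusted p = 0.111). The library labelled cervical (replicate 2), with 161 interneurons, decided that value, since without it the excess was 2.71 points with an exact p of 0.0357 (56 groupings). Without both doubted libraries it was 2.45 points with an exact p of 0.0571 (35 groupings). Within each pool the lumbar/sacral library was the highest, and with the labels permuted only within pools the two-sided exact p was 0.111 (27 arrangements). The share of cholinergic nuclei also depends on how many motor neurons of each class a region yields.

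**Figure D3:**
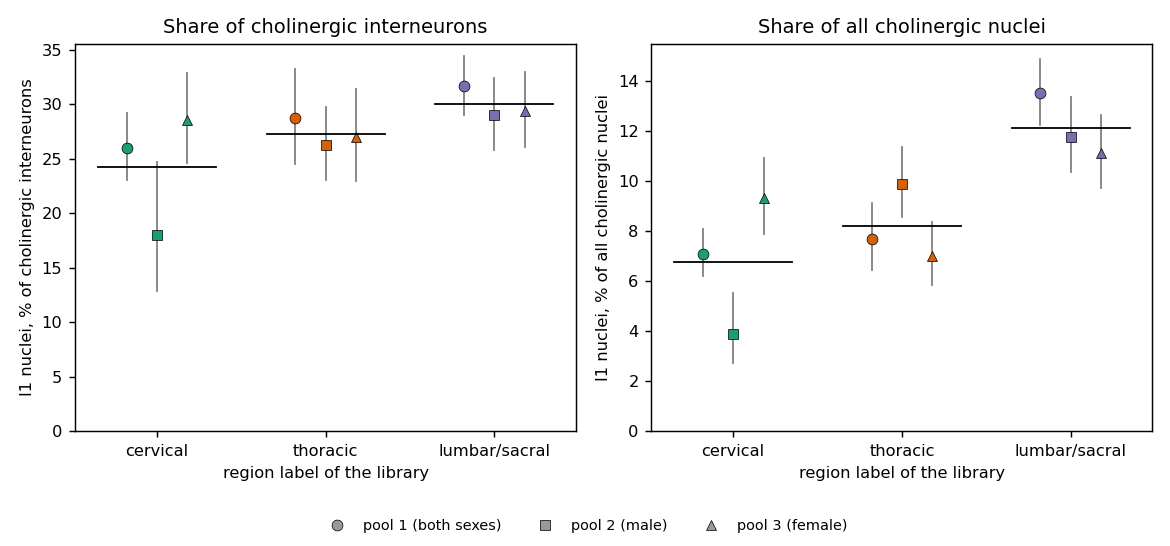
Share of I1 nuclei among the cholinergic interneurons (left) and among all cholinergic nuclei (right) in each library, in percent, with 95% Wilson intervals that cover counting error only and bars for the mean of a region label. On the right the lumbar/sacral libraries, at 11.1 to 13.5%, lie above the others; on the left they lie above the others at 29.0 to 31.6%.

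Within I1, gene levels were compared between lumbar/sacral cord and the other regions, in 9369 genes. No gene passed (limma, adjusted p under 0.05): 0 were higher (0% of genes) and 0 lower (0% of genes). An unadjusted p under 0.05 was found in 143 genes, fewer than this threshold would give in 9369 unchanged genes. Without both doubted libraries 0 of 8926 genes were higher (0%) and 0 lower (0%) in limma. There 362 had an unadjusted p under 0.05, again fewer than unchanged genes would give. The 3 genes with the lowest p did not overlap between the groups. *Prkcq*, a protein kinase C, was at 69.8, 76.2 and 70.2 CPM in the cervical, 54.1, 45.3 and 55.0 in the thoracic, and 33.7, 32.3 and 35.01 CPM in the lumbar/sacral libraries (log2 difference -0.77 ± 0.13 SE). *Sorcs3*, a sorting receptor, was at 282, 235 and 259 CPM, then 262, 174 and 228 CPM, then 504, 364 and 393 CPM (0.80 ± 0.16). *Egflam*, pikachurin, was at 43.9, 50.1 and 45.0 CPM, then 39.4, 49.99 and 33.7 CPM, then 16.9, 29.3 and 20.01 CPM (-0.86 ± 0.19). In all, the lumbar/sacral libraries lay above the other 6 in 67 genes (0.715%) and below them in 50 genes (0.534%).

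The libraries of a replicate came from the same mice. With the pool as a block, 9 genes passed in this comparison, 2 higher and 7 lower in lumbar/sacral cord, of which 1 was *Sorcs3* (adjusted p = 0.00918, limma) and another *Rmst*, a long noncoding RNA, at 315, 139 and 283 CPM, then 284, 161 and 189, then 555, 362 and 400 CPM (log2 difference 0.97 ± 0.14 SE, adjusted p = 0.0283). All 7 lower genes were mitochondrial. *mt-Co3* was at 231, 817 and 814 CPM, then 185, 630 and 541, then 101, 304 and 346 CPM (-1.05 ± 0.10 SE, adjusted p = 0.00192). Each region had its lowest level in pool 1, and the median total of I1 nuclei, 4142 to 6450 corrected counts in lumbar/sacral and 6128 to 16190 in the other libraries, moved with the same contrast. Their part in the result was not tested.

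None of the 5 marker genes of I1 passed between lumbar/sacral cord and the rest. The lumbar/sacral difference was 0.31 ± 0.12 for *Piezo2*, 0.07 ± 0.14 for *Pax2*, 0.24 ± 0.25 for *Prlr*, -0.05 ± 0.16 for *Cdh23* and -0.25 ± 0.14 for *Igsf3* (log2, SE). Among 11 tested Hox genes in I1, 8 leaned higher in lumbar/sacral cord, with a median of 0.21 against 0.03 for all genes, and 0 passed. *Hoxc5* was at 11.8, 28.3 and 6.31 CPM in the libraries labelled cervical, 41.8, 6.08 and 38.2 in those labelled thoracic, and 70.1, 75.6 and 88.0 CPM in lumbar/sacral cord (unadjusted p = 0.00237, adjusted p = 1, limma). *Hoxa9* was at 0.784, 10.9 and 0 CPM, then 13.1, 1.35 and 17.97 CPM, then 26.3, 37.4 and 20.01 CPM. Within I1, too, the cervical and thoracic libraries of the male pool were crossed against their labels in both genes.

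Between cervical and thoracic I1, as labelled, 0 of 9369 genes were higher (0% of genes) and 0 lower (0% of genes). An unadjusted p under 0.05 was found in 280, fewer than unchanged genes would give. The 3 with the lowest p were *Pex5l* (0.60 ± 0.13, log2, SE), *Psip1* (-0.52 ± 0.13) and *Pantr1* (0.95 ± 0.25), with adjusted p of 0.985 each in limma.

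Without both doubted libraries the same comparison rested on 2 cervical and 2 thoracic libraries beside the lumbar/sacral ones, and 17 of 8926 genes were higher in cervical I1 (0.19% of genes) and 2 lower (0.0224% of genes). This choice was made after the values of the Hox genes were seen, and *Hoxc5*, 1 of the 2 lower genes, is not independent of it. Cell surface genes were among the higher ones. *Cdh13*, a cadherin anchored by lipid (chromosome 8, 118283733 to 119324921, plus strand), was at 300 and 355 CPM in the cervical libraries of pools 1 and 3 and at 80.4 and 88.7 CPM in the thoracic ones, a log2 difference of 1.89 ± 0.15 (SE, adjusted p = 0.00331, limma). *Adgrl2*, a latrophilin, was at 139 and 183 against 28.7 and 28.1 CPM (2.30 ± 0.19). *Erbb4* was at 133 and 159 against 7.38 and 23.6 CPM (2.995 ± 0.397), the gene with the widest spread above. *Epha5*, an ephrin receptor, was at 195 and 231 against 90.2 and 89.8 CPM, and *Gfra1*, the GDNF co-receptor, at 77.6 and 86.0 against 32.0 and 29.2 CPM.

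Signalling genes joined them. *C1qtnf7*, a secreted C1q-like protein (chromosome 5, 43515538 to 43618803, plus strand), was at 129 and 176 CPM against 16.4 and 16.8 CPM (2.85 ± 0.23, adjusted p = 0.00331, limma). *Pde1a*, a calcium-dependent phosphodiesterase, was at 76.1 and 107 against 9.84 and 5.61 CPM, and *Vav3*, a guanine nucleotide exchange factor, at 273 and 340 against 83.6 and 58.4 CPM. *Trpm3*, a heat-gated channel, was at 344 and 476 against 145 and 135 CPM. *Arpp21*, *Mast4*, *Clstn2*, *Caln1*, *Ltbp1*, *Pld5*, *6530403H02Rik* and *Gm30382* were the other higher genes, and *9630002D21Rik* was the other lower one.

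The values of the libraries left out did not enter the fit that found these 19 genes. *Hoxc5* is an exception in kind, since its values had prompted leaving them out. How often these libraries lie nearer to either region over all genes was not counted. On the log2 scale the library labelled cervical (replicate 2) lay nearer to thoracic replicates 1 and 3 in 19 of 19 genes. The library labelled thoracic (replicate 2) lay nearer to cervical replicates 1 and 3 in 18 of 19, the exception being *Pld5*. The count for this second library depended on the scale. In CPM it also lay nearer to thoracic replicates 1 and 3 in *C1qtnf7*, *Adgrl2*, *Clstn2*, *Caln1*, *Ltbp1*, *Mast4* and *Gfra1*. *Cdh13*, for example, was at 80.6 CPM in the library labelled cervical (replicate 2) and 232 CPM in the library labelled thoracic (replicate 2). In 17 of 17 higher genes all 3 lumbar/sacral libraries lay above both thoracic libraries, as *Cdh13* did with 318, 299 and 271 CPM. These genes were chosen for thoracic values below the cervical ones, in a fit that held the lumbar/sacral libraries. How often this order holds over all genes was not counted, so no likeness of lumbar/sacral to cervical I1 is drawn from it. Against both cervical libraries, all 3 lumbar/sacral ones were lower in *Pde1a* and *Adgrl2* and higher in *Pld5*. In the 2 lower genes the lumbar/sacral mean was nearer to the thoracic libraries. *Hoxc5* was at 70.1 to 88.0 CPM in lumbar/sacral I1, above both thoracic libraries, and *9630002D21Rik* at 72.2 to 74.8 CPM, between cervical (46.3 and 35.5) and thoracic I1 (108 and 98.8). In I2 to I6 the same contrast had a median of 0.29 over the 17 genes, against 1.89 in I1, where the genes were chosen, and the difference between the clusters was not tested. *Hoxc5* was lower in the cervical libraries by 1.71 in I1 and by 1.77 in the mean of I2 to I6.

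**Figure D4:**
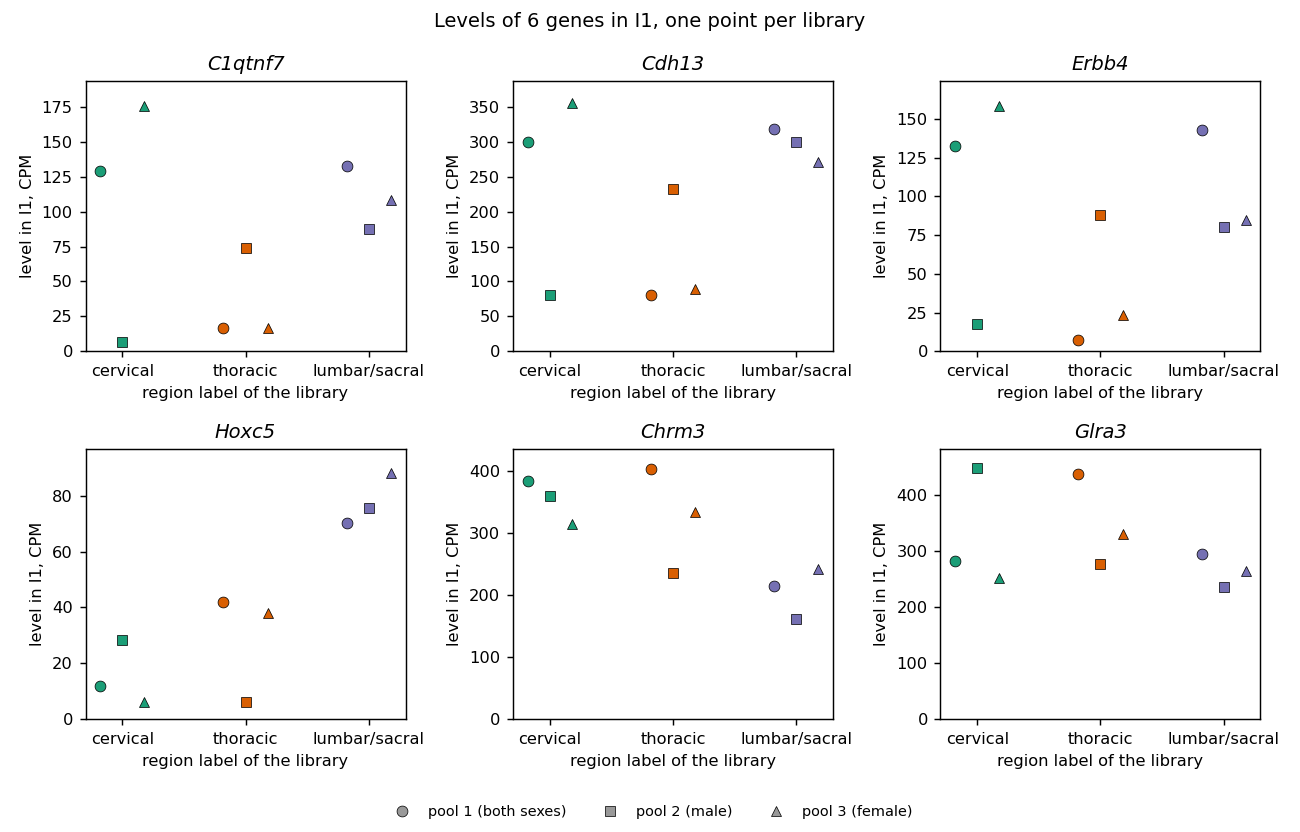
Level in I1, in CPM, of 6 genes in the 9 libraries by region label, 1 point per library with shapes for pools. In the upper row the square of the male pool labelled cervical lies near or below the thoracic libraries of the other pools. The square labelled thoracic lies between the thoracic and cervical libraries of those pools. *Cdh13* is at 80.6 CPM in the former and 232 CPM in the latter, and *Hoxc5* at 28.3 and 6.08 CPM. *Chrm3* is at 162 to 242 CPM in lumbar/sacral I1.

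A further test asked whether the difference between I1 and I2 to I6 was the same along the cord. In 12300 genes, 7 passed in the higher direction (0.0569% of genes), in which I1 gained on the other clusters in lumbar/sacral cord, and 23 in the lower (0.187% of genes). *Fam163a* was at 44.7, 45.7 and 54.4 CPM in cervical, 43.5, 57.4 and 44.9 in thoracic and 100.5, 82.2 and 68.0 CPM in lumbar/sacral I1, while I2 to I6 had 75.9 to 113 CPM throughout (difference of log2 differences 0.98 ± 0.17 SE, adjusted p = 0.0081, limma). *Grin3a*, an NMDA receptor subunit, had a mean of 123 CPM in lumbar/sacral and 71.8 CPM in the other I1 libraries, against 347 and 400 CPM in I2 to I6 (1.06 ± 0.20, adjusted p = 0.0199). *Samd5*, *Gpc6*, *Ripor2* and *Opcml* were other genes in that direction, at 1.07, 0.84, 0.67 and 0.53.

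Among the genes in the lower direction were the receptor genes *Chrm3* and *Glra3*. *Chrm3* (chromosome 13, 9875486 to 10360847, minus strand) was at 383, 359 and 315 CPM in cervical, 403, 235 and 333 in thoracic, and 215, 162 and 242 CPM in lumbar/sacral I1. Its difference from I2 to I6 was 2.17 and 2.40 in the rostral regions and 1.10 in lumbar/sacral cord (-1.19 ± 0.20 SE, adjusted p = 0.00701, limma). *Glra3* had a mean of 265 CPM in lumbar/sacral and 338 CPM in the other I1 libraries, against 85.2 and 46.3 CPM in I2 to I6 (-1.29 ± 0.20, adjusted p = 0.0044). Its lumbar/sacral change in I1 alone was -0.31 (unadjusted p = 0.143, limma), beside 2.00 in I2, -0.03 in I3, 0.11 in I4, 0.67 in I5 and 2.11 in I6. *Hoxd11*, a gene of the caudal cord, was at 0 CPM in the 6 rostral libraries of I1 and at 5.4, 5.14 and 5.0 CPM in the lumbar/sacral ones, where I2 to I6 had 15.3 to 23.9 CPM (-1.17 ± 0.22, adjusted p = 0.0199). No I1 library reached the filter of 10 CPM for *Hoxd11*, and its I1 levels lay near the counting floor. It was tested only because of its levels in I2 to I6, so its direction is not independent of that filter. *Cntnap5c*, *Gm12216* and *Egflam* were among the rest, at -1.10, -1.21 and -1.07.

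In *Ebf1* the difference lay with the other clusters. Its I1 level was at 3602 to 4447 CPM in the rostral and 3541 to 3950 CPM in the lumbar/sacral libraries, and the difference of -0.93 ± 0.10 (SE, adjusted p = 5.34e-05, limma) stood beside a lumbar/sacral change of 2.64 in I2, 1.23 in I4, 0.73 in I3, -0.20 in I5 and -0.07 in I6. When the nuclei of I2 to I8 were pooled into 1 sum, in place of the mean over I2 to I6, the sign turned (0.0874), and *Chrm3* came to -0.0386. This setting also brought in I7 and I8. The count of 30 genes moved with single libraries, to 3, 4 and 10 without lumbar/sacral replicates 1, 2 and 3, to 17 without thoracic replicate 1 or 3, and to 56 without the library labelled cervical (replicate 2). Without both doubted libraries 40 genes passed in the higher direction (0.334% of genes) and 49 in the lower (0.409% of genes), and these 89 held all 30.

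Male and female pools differed in I1 by 4 of 9118 genes, all of the sex chromosomes, with 3 higher in the male pool (0.0329% of genes) and 1 lower (0.011% of genes). An unadjusted p under 0.05 (limma) was found in 1024 genes, more than unchanged genes would give. The term for region followed the labels, also those of the doubted libraries. *Uty* reached 133 (cervical), 147 (thoracic) and 114 CPM (lumbar/sacral) in replicate 2, the males, where replicate 3, the females, had 0.789, 2.25 and 0 CPM. *Eif2s3y* and *Kdm5d* followed, at 93.7 to 123 and 41.2 to 56.5 CPM against 0. *Xist*, which silences an X chromosome in females, showed the reverse, 0, 1.35 and 2.93 CPM for males but 652, 576 and 683 CPM for females. The groups did not overlap in any of the 4 genes. Sex was confounded with the pool, and the count was 574 without the library labelled cervical (replicate 2), 642 without cervical replicate 3, 2 without lumbar/sacral replicate 3, and 1 without the library labelled thoracic (replicate 2) or lumbar/sacral replicate 2. The hormone receptors and *Prlr* did not pass (*Prlr* -0.18 ± 0.26, log2, SE).

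Among I1 nuclei themselves, 12 of 5131 genes varied most for their mean level, by the variance over the mean relative to genes of like mean. They were *Malat1*, *Kcnip4*, *Kirrel3*, *Il1rapl2*, *Rbfox1*, *Gpc5*, *Grm5*, *Galntl6*, *Robo1*, *Unc5d*, *Gm28928* and *Htr2c*, with relative variances from 14.8 down to 3.65. *Malat1*, a nuclear RNA, also differed between libraries, from 26772 to 102283 CPM. *Htr2c* was found in 64.4% of thinned I1 nuclei (71.3% unthinned) and *Unc5d*, a netrin receptor, in 57.3% (67.0%), whereas *Kirrel3*, an adhesion protein, and *Grm5*, a metabotropic glutamate receptor, were in 97.2 and 99.3%.

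Several of these genes were set against each other within a library. Between *Kirrel3* and *Htr2c* Spearman's rho across thinned nuclei was -0.52 in the median of 9 libraries (range -0.62 to -0.43), between *Unc5d* and *Htr2c* -0.48, and between *Grm5* and *Htr2c* -0.43. *Kirrel3* went with *Grm5* (0.62) and *Unc5d* (0.53). Over all genes, *Ptprt* (-0.48), *Kcnq5* (-0.48) and *Slc24a3* (-0.45) were also opposed to *Htr2c*, and *Thsd7a* (0.44), *Thsd7b* (0.38) and *Tenm3* (0.36) went with it; they were picked after their values were seen. The nuclei of a library share its depth and free RNA, and the correlations are a description, with no p.

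**Figure D5:**
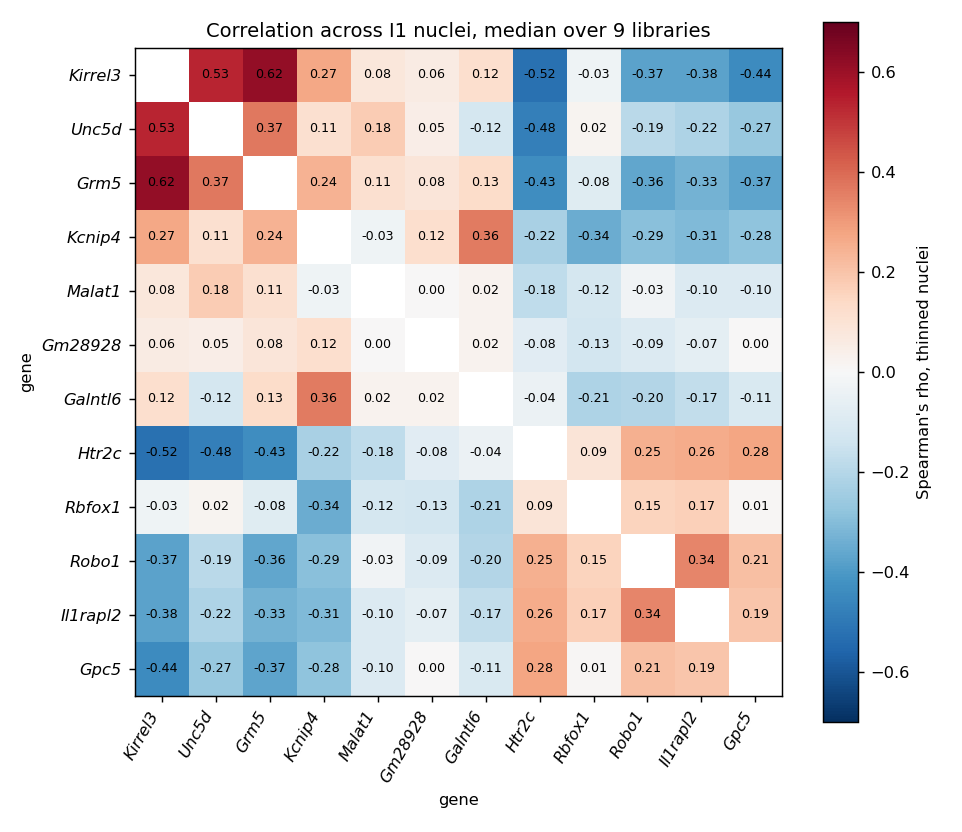
Spearman's rho between the 12 most variable genes across I1 nuclei thinned to 4000 corrected counts, as the median over 9 libraries with 29 to 210 nuclei each. *Kirrel3*, *Unc5d* and *Grm5* are positively related to each other (0.37 to 0.62) and negatively to *Htr2c* (-0.43 to -0.52) and *Gpc5*.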

How the data were processed

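Per the labels and the study's methods, the authors mapped 10x Chromium reads to mm10, introns included (Cell Ranger 3.1.0), filtered nuclei, corrected them with SCTransform in Seurat and clustered them. The deposited values are whole-number scores from that model, not raw counts, so count models were not used; the correction evens out totals within a library and can shrink differences in depth and RNA content. Cluster names are the authors'. Corrected counts were summed per cluster and library (at least 10 nuclei), and log2(CPM + 5) was compared with limma 3.58.1 (trend) in R 4.3.3, for genes at 10 CPM or more in at least 3 sums, with Benjamini-Hochberg adjustment and a threshold of 0.05. The test of I1 against I2 to I6 along the cord used the difference within each library. Shares were compared by exact permutation, over all libraries and, as an alternative added after seeing the data, within pools. The sex comparison had a term for region and left out pool 1. Python 3.11.15, numpy 2.4.6, pandas 2.3.3, scipy 1.17.1 and scanpy 1.11.5 served the rest (seed 1), and the limma steps were tested on simulated data.

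The members, gene lists and tests were chosen with earlier results of these data known. Genes named are the 5 markers, the 15 highest and 10 lowest differences that reach 50 CPM and have 1 sign in every library, up to 8 called genes a direction (or the 3 with the lowest p), the 12 most variable genes and list members. For the test without both doubted libraries all 19 called genes are named. Some genes that the rule names are not reported here. Replicate numbers mark pools of the same mice and so pair the libraries; deviations from region means correlated at -0.11 to 0.78 over 9 same-number pairs and at -0.63 to 0.44 over 18 others. Libraries are pools, so p-values of the region tests measure the spread between the libraries of a region, each from another pool. In the sex test each sex was 1 pool, divided by region. Its p-values measure how the difference between those pools varied over regions, and not the spread between pools of a sex.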

Additional observations from a re-analysis of the deposited data

Results flagged for a closer look

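The difference between I1 and I2 to I6 changed between lumbar/sacral cord and the other regions (limma, adjusted p under 0.05) in 30 genes, of which those named here were taken by the rule on named genes. The change on the log2 scale was 1.07 for *Samd5*, 1.06 for *Grin3a*, 0.98 for *Fam163a*, 0.84 for *Gpc6*, 0.67 for *Ripor2* and 0.53 for *Opcml*. It was -1.29 for *Glra3*, -1.21 for *Gm12216*, -1.19 for *Chrm3*, -1.17 for *Hoxd11*, -1.10 for *Cntnap5c*, -1.07 for *Egflam* and -0.93 for *Ebf1*. In *Gm12216* and *Hoxd11* each of I2 to I6 was higher in lumbar/sacral cord, and in *Grin3a* each was lower.

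The reporter transcript, which no comparison used, had a corrected count in 8.14% of I1 nuclei in the median library (2.02 to 11.9%), against 8.47% of the other cholinergic nuclei (5.24 to 15.2%). Without sorted nuclei that lack the reporter, no background level was measured.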

How the results depend on the processing

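Of I1 against I2 to I6, 612 genes were counted, 315 with a pseudocount of 20 (186 higher, 129 lower), 111 where every sum had to hold 10 corrected counts (3112 genes left), and 581 to 630 without single libraries. Scaling by the median of ratios moved the median of all genes from -0.11 to -0.0016 and gave 407 higher and 235 lower genes. Pooling the nuclei of I2 to I8 gave 201 and 438. Within I1, the lumbar/sacral count of 0 became 1 with no filter, and 9 with a replicate block. The cervical against thoracic count of 0 became 19 without both doubted libraries and stayed 0 with the replicate block. The change along the cord, 30 genes, came to 4 with no filter, 8 with 10 corrected counts in every sum, and 10 after thinning. It came to 60 (13 shared) with I2 to I8 pooled, 29 with the replicate block (25 shared), 89 without both doubted libraries, and 3 to 56 without single libraries. *Ebf1* reversed to 0.0874 with I2 to I8 pooled. The sex count of 4 became 12 with no filter, 0 with 10 corrected counts in every sum, and 1 to 642 without single libraries. The lumbar/sacral excess of I1 ran from 3.94 to 5.16 points of cholinergic nuclei and from 2.71 to 4.85 points of interneurons without single libraries. By levels averaged over libraries I7 was the most like cluster (r from 0.954 to 0.961), and 12 of the 12 most variable genes were kept, without any single library and without both doubted ones. The cause of these shifts was not tested. An exact permutation within pools (replicate block) changed neither call on the shares (two-sided p = 0.037 and 0.111). In the library with 29 I1 nuclei, 3 corrected counts came to 6.53 CPM, and levels below that were not detectable there.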
